A study of Mus musculus with 2 samples.

Results

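The genes of MHC class II presentation described here are 10 of the 32285 genes in the count matrix of a single-cell RNA-seq experiment on mouse skin. They were taken by symbol as a pathway: the chain genes H2-Aa, H2-Ab1 and H2-Eb1, the invariant chain gene Cd74, the transactivator gene Ciita, and the peptide editor genes H2-DMa, H2-DMb1, H2-DMb2, H2-Oa and H2-Ob. All 10 had UMIs, the counted distinct RNA molecules, in kept cells of each library. The cells came from shaved dorsal skin of wild-type (WT) male mice and had been sorted for F4/80, a macrophage surface protein encoded by Adgre1, and for high surface MHC class II. Mice were 9 weeks old in the younger group and 108 weeks old in the other, and each group is 1 library of cells pooled from 2 mice. A barcode suffix separates the 2 libraries in the matrix, but no source used here ties a suffix to an age, so ages are not compared and the libraries are called library 1 and library 2. There is no replicate, and no p-value is given.

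MHC class II molecules are pairs of an alpha and a beta chain that carry peptides of endocytosed protein to the cell surface, where helper T cells read them. The invariant chain escorts newly made pairs to endosomes and fills their groove, H2-DM then exchanges its last fragment for peptide, H2-O restrains H2-DM, and the transactivator CIITA drives transcription through factors bound to the X and Y boxes of the promoters. In skin, dendritic cells, Langerhans cells and many dermal macrophages carry class II at rest, whereas other cells can acquire it under interferon-gamma.

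Library 1 held 3235 barcodes with 35821853 UMIs and library 2 held 2022 barcodes with 20382748 UMIs. Of these, 2396 and 1401 cells passed 3 limits: 500 genes or more, 1000 UMIs or more, and mitochondrial UMIs no higher than 10%. Their medians were 10761 and 11196 UMIs per cell. The libraries share 1 barcode sequence. Cells were clustered without the listed class II and pathway genes, and clusters were named from marker lists, so that names are rebuilt and end in like. The 1223 macrophage-like cells lay in 5 clusters, the 509 dendritic-like cells in 3, and 21 cells led by Ccr7 were mature dendritic-like. A further 287 myeloid cells in 2 clusters scored highest on macrophage lists, but by less than the required lead of 1 log2 unit over lists of other groups of cells (0.99 over neutrophil and 0.86 over dermal dendritic markers), and are called unnamed.

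The sort gate was only partly visible in the RNA. Adgre1 stood at 474 CPM, its UMIs scaled to a total of 1000000 UMIs in a class, in macrophage-like cells, at 228 in dendritic-like cells and at 4.15 in fibroblast-like cells. Cells with fibroblast, Schwann, keratinocyte, vascular or muscle profiles, here called non-myeloid, numbered 1691 (44.5% of kept cells), with 31.9% in library 1 and 66.2% in library 2. Counted by class II RNA, 2015 of 3797 kept cells (53.1%) reached 0.552% of their UMIs from H2-Aa, H2-Ab1, H2-Eb1 and Cd74, which is the 5th percentile of the macrophage-like cells. That share was 65.4% in library 1 and 32.0% in library 2. The limit was set from the macrophage-like cells, so that about 95% of them pass by construction, and it does not stand for the gate.

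The chain genes and Cd74 made up most of the class II RNA. A UMI of a 3′ library stands for 1 captured molecule whatever the length of its gene, so CPM are set side by side between genes without scaling to length. In macrophage-like cells, Cd74 reached 20790 CPM in library 1 and 22510 in library 2. H2-Aa, the alpha chain gene of I-A, reached 9193 and 9839 CPM, and H2-Ab1, the gene of its beta chain, 7504 and 8690 CPM. Invariant chain RNA was thus more abundant than RNA of either I-A chain in both libraries. H2-Eb1, the beta chain gene of I-E, stood at 7426 and 8416 CPM, close to H2-Ab1. The alpha chain gene of I-E, H2-Ea, was not analysed here. The summed level of H2-Aa, H2-Ab1, H2-Eb1 and Cd74, from here on the class II sum, came to 44913 and 49455 CPM, of which Cd74 held 46.1% in the pool.

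Dendritic-like cells held more of all 10 genes. Cd74 reached 42044 CPM in library 1 and 45626 in library 2, H2-Ab1 15686 and 17207, H2-Aa 15619 and 16137, and H2-Eb1 13935 and 15757. For each of these genes, the lower dendritic-like library lay above the higher macrophage-like library. The class II sum was 87284 and 94727 CPM, a log2 ratio to macrophage-like cells of 0.96 (exact 95% interval from the UMI sums 0.96 to 0.97) in the pool. All intervals cover counting error only, since cells of a library are not replicates. With a threshold of 2-fold, 6.04% of the 5332 genes with at least 20 CPM in either class were called higher in dendritic-like cells. Of the members, Cd74, H2-Ab1 and H2-DMb2 were called, and so were H2-Oa and H2-Ob, which reached 20 CPM only in dendritic-like cells. A gene let in by the class in which it is high had to differ, so such calls are descriptions and no count of members is read against that share. Several genes lay at the threshold: Cd74 at 1.03 and H2-Ab1 at 1.06 were just past it, H2-Ab1 fell to 0.99 in library 2 alone, and H2-Eb1 at 0.92 was just under it.

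Among the classes, the class II sum put dendritic-like cells first in both libraries. Macrophage-like cells came next, just above the unnamed myeloid cells (40139 and 44647 CPM) in both libraries. Mature dendritic-like cells (43630 and 66901 CPM) overlapped both, so their place is not resolved. Every non-myeloid class was lower in both libraries: endothelial-like cells had 10121 and 2715 CPM, fibroblast-like cells 767.5 and 882, and keratinocyte-like cells 597 and 171. Differences between libraries were larger in most of these classes than in macrophage-like and dendritic-like cells, and neighbours among them overlapped. Small classes outside this set differed as well: T cell-like cells had 412 CPM in library 1 and 12675 in library 2, where 1 of 10 cells held 98.7% of the class II UMIs, and mast cell-like cells had 10515 and 2900.

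**Figure D1:**
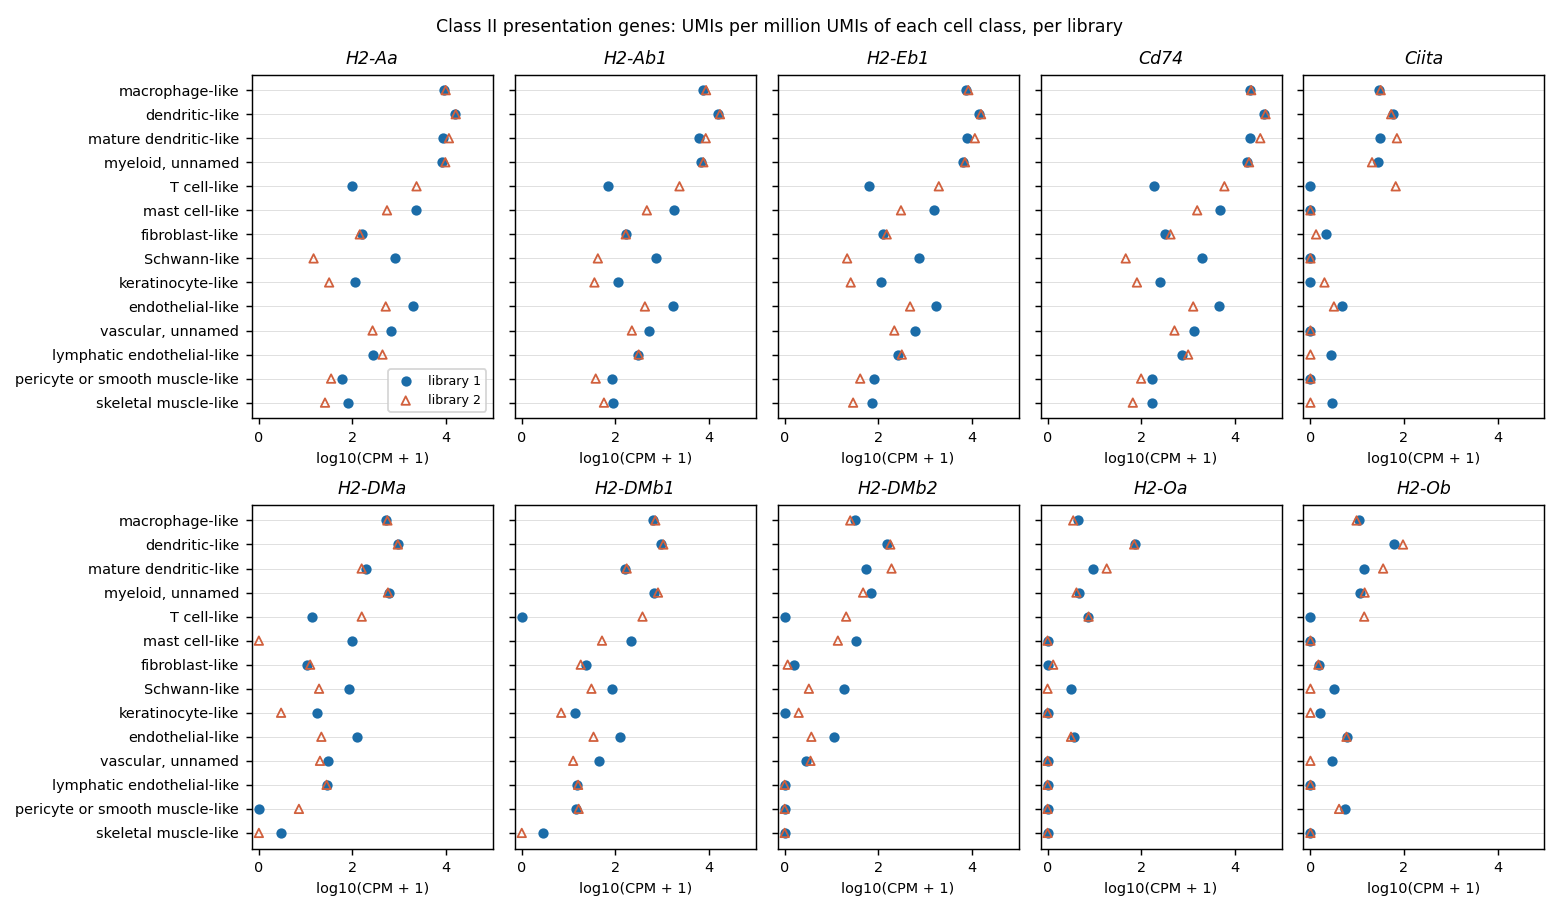
Levels of the 10 genes by class of cells, as log10 of CPM plus 1, with filled circles for library 1 and open triangles for library 2. Chains and Cd74 lie highest in dendritic-like cells in both libraries, and H2-Oa and H2-Ob are set further apart between dendritic-like and macrophage-like cells than the chains are.

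The macrophage-like clusters spanned 1.97-fold in the class II sum, about the step from macrophage-like to dendritic-like cells. The class II sum was lowest, at 33426 CPM in library 1 and 29130 in library 2, in the cluster led by Ccl8 and Cd209f with Folr2 and Ccl24, a profile of resident macrophages. It was highest, at 63877 and 64762 CPM, in the cluster led by the chemokine genes Ccl4 and Ccl3. The cluster led by Ly6c2 and Spp1 had 35044 and 47604 CPM, the cluster with Ccl8, Pf4 and C1q genes 51217 and 51482, and the cluster led by Retnla and Lyz1 62350 and 58040. No macrophage-like cluster reached the 85144 CPM of the main dendritic-like cluster in its lower library. Across these clusters the fold between highest and lowest was 1.74 for Cd74, 1.95 for H2-Aa and 2.40 for H2-Ab1 and H2-Eb1, so the chain genes and Cd74 had ranges of like width. Among dendritic-like cells, the cluster led by Ccr7 and Napsa held 103077 and 114475 CPM, and the small cluster with the cell cycle genes Top2a and Mki67 57612 and 71116.

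The chain genes and Cd74 also moved together from cell to cell. After each cell was thinned to 2000 UMIs, Pearson's r between pairs of the 4 genes ran from 0.776 (H2-Aa with H2-Ab1) to 0.817 (H2-Eb1 with Cd74) over 1164 macrophage-like cells. Over 501 dendritic-like cells it ran from 0.670 to 0.763. With H2-DMa and H2-DMb1, the same genes gave 0.359 to 0.449 in macrophage-like cells and at most 0.171 in dendritic-like cells. Mean thinned UMIs a cell of H2-DMa and H2-DMb1 were 0.955 and 1.25 in macrophage-like cells and 1.90 and 1.93 in dendritic-like cells. The lower r in dendritic-like cells thus went with higher counts of the editors, and its cause was not tested. These cells share 2 libraries and a common depth, and low counts alone lower r, so the values only describe the cells. Per cell, the median share of UMIs from the class II sum was 4.51% in macrophage-like cells (5th to 95th percentile 0.552 to 8.10) and 9.16% in dendritic-like cells (4.18 to 14.8). The distributions overlapped widely, and a macrophage-like cell at the top of its range exceeded a dendritic-like cell at the bottom.

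H2-DMa and H2-DMb1 encode the chains of H2-DM, the editor that loads peptide. H2-DMa stood at 526 CPM in library 1 and 558 in library 2 in macrophage-like cells, and at 952 and 932 CPM in dendritic-like cells. H2-DMb1 stood at 644 and 715 CPM against 966 and 1058. Both were higher by less than 2-fold, with log2 ratios of 0.83 and 0.59, and H2-DMb1 had the lowest ratio of the 10 genes. In the macrophage-like clusters H2-DMa ranged 3.67-fold, from 281 CPM in the Cd209f cluster to 1031 CPM in the Retnla cluster.

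H2-DMb2, a near copy of H2-DMb1, followed another pattern. It stood at 31.4 CPM in library 1 and 24.2 in library 2 in macrophage-like cells, and at 156 and 180 CPM in dendritic-like cells, a pooled log2 ratio of 2.46 (2.29 to 2.63). Within the macrophage-like cells it ran from 0.827 CPM (2 UMIs) in the Cd209f cluster to 109.7 CPM (95.1 to 126) in the Retnla cluster, a fold of 133. An unnamed myeloid cluster also led by Retnla and Lyz1 held 127 CPM (113 to 143). Both were below the dendritic-like pool of 164 CPM (155 to 173) and above the other macrophage-like clusters, which had at most 25.8 CPM. Retnla was also among the 10 leading genes of the Cd209f cluster, which had the lowest H2-DMb2, of the Ccl4 and Ccl3 cluster (24.7 CPM) and of another unnamed cluster (20.9 CPM), so H2-DMb2 did not follow Retnla as such. H2-Oa was not raised in either cluster led by Retnla. Assignment between the paralogs is uncertain: the longest transcripts of H2-DMb1 and H2-DMb2 share 361 runs of 50 bases (26.6% and 25.2% of each). No run was common to the last 500 bases of both genes, which a 3′ library mostly reads. Runs in the end of either gene that lie further up in the other were not counted.

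H2-Oa and H2-Ob, which encode the chains of the H2-DM inhibitor H2-O, separated the classes most. H2-Oa stood at 3.46 CPM in library 1 and 2.53 in library 2 in macrophage-like cells, and at 71.5 and 70.0 CPM in dendritic-like cells. The log2 ratio was 4.45 (3.98 to 4.95), a fold of 21.8, from 40 and 530 UMIs. H2-Ob stood at 9.87 and 8.68 CPM against 61.4 and 94.1 CPM, with a log2 ratio of 2.90 (2.61 to 3.20). The H2-O genes and H2-DMb2 were thus the 3 members with the largest ratios, in library 1 and in library 2 alike. Of the 40 UMIs of H2-Oa in macrophage-like cells, 37 came from the cluster led by Ly6c2 and Spp1 (8.92 CPM). Clusters 3, 4 and 8, led by Ccl8 and C1q genes, by Cd209f, and by Retnla, had none. A count of 0 allows at most 3 counts here. In the dendritic-like cluster led by Ccr7 and Napsa both genes were highest, H2-Oa at 88.9 and 102.4 CPM and H2-Ob at 88.1 and 129 CPM.

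Shares of cells gave the same order. After thinning to 2000 UMIs, 15.8% of 501 dendritic-like cells (exact 95% Clopper-Pearson interval 12.7 to 19.3) had a UMI of H2-Oa, with 8 shallower cells left out and 47.2% unthinned. Of 1164 macrophage-like cells 0.430% (0.140 to 1.00) had one, with 59 left out and 1.88% unthinned. Fibroblast-like cells, which should lack the gene, had none in 780 cells, which allows up to 0.385% of cells with a UMI, with 46 left out and 0.242% unthinned. Median depths were 14581, 9312 and 13108 UMIs. At the thinned depth, where 5 macrophage-like cells had a UMI, the macrophage-like interval overlapped what fibroblast-like cells allow. Over all counts the classes differed, with 3.25 CPM (2.33 to 4.43) in macrophage-like and 0.148 CPM (0.0180 to 0.536, 2 UMIs) in fibroblast-like cells. For H2-Ob the thinned shares were 16.4%, 1.63% and 0 of 780, and for H2-DMb2 28.9%, 4.04% and 0.128%. Unthinned, H2-Ob was seen in 50.1%, 7.36% and 0.847% of cells and H2-DMb2 in 72.1%, 12.1% and 0.484%.

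Ciita encodes the transactivator on which class II transcription depends, and its RNA was scarce. It stood at 28.3 CPM in library 1 and 30.8 in library 2 in macrophage-like cells and at 57.0 and 52.1 CPM in dendritic-like cells. The log2 ratio was 0.94 (0.73 to 1.15) in the pool, near that of the class II sum, and 1.01 in library 1 alone. In library 2 alone, Ciita stood at 170% of the macrophage-like level, against 192% for the class II sum. In the macrophage-like clusters it was lowest in the Cd209f cluster (12.0 CPM, 29 UMIs) and highest in the Ccl4 and Ccl3 cluster (41.2 CPM, 60 UMIs), which were also the lowest and highest clusters of the class II sum in the pool and in library 1. In library 2 the order of Ciita differed: the Ly6c2 and Retnla clusters were highest (45.9 and 45.7 CPM), the Ccl4 and Ccl3 cluster had 26.8, and the cluster with Ccl8, Pf4 and C1q genes (15.4) and the Cd209f cluster (15.7) were lowest. After thinning, Ciita was seen in 12.0% of dendritic-like cells, 5.76% of macrophage-like cells and 0.128% of fibroblast-like cells. Unthinned, these were 39.9%, 18.2% and 1.09%. Fibroblast-like cells held 0.742 CPM (10 UMIs) and endothelial-like cells 2.99 CPM (11 UMIs). A 3′ library reads the end of the transcript and cannot tell the alternative promoters of Ciita apart.

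The factors that recruit CIITA are listed beside it. Of 7 listed promoter factors, Rfx5, Rfxap, Rfxank, Nfya, Nfyb, Nfyc and Creb1, 4 reached 20 CPM in either class, with log2 ratios of dendritic-like over macrophage-like cells from -0.32 (Nfyc) to 0.46 (Creb1, 0.28 to 0.64), none past 2-fold, as Ciita itself was not. Rfx5, under 20 CPM in both, was at 0.93 (0.28 to 1.58), close to Ciita. Irf8, a transcription factor gene of myeloid cells, was lower in dendritic-like cells (log2 ratio -1.24). It stood at 59.6 and 144 CPM against 218 and 152 CPM in macrophage-like cells, so its difference rests on library 1. Spi1, the myeloid factor PU.1, was level at 466 and 444 CPM.

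Mature dendritic-like cells had less of the class II RNA than other dendritic-like cells and a different make-up of editors. Their 21 cells, 16 and 5 by library, had a class II sum lower by a log2 ratio of -0.90 (-0.92 to -0.87), and by less in library 2 alone (-0.50). These cells formed a class of their own at each resolution tried, but not under a looser or a stricter filter on cells or with 3000 variable genes, so what is said of them rests on the settings that keep the class. The dendritic-like cells they are set against include the cluster led by Ccr7 and Napsa. There the mature dendritic list trailed the best list by only 0.57 log2 units, and the median class II share of UMIs was 11.5%. The contrast thus does not cover all cells with Ccr7. Of all 5367 genes tested, 18.5% were lower by 2-fold or more in mature dendritic-like cells. H2-Ab1, H2-DMa, H2-DMb1 and H2-DMb2 were called lower, as were H2-Oa and H2-Ob, which reached 20 CPM only in dendritic-like cells. H2-DMa was at 199 CPM in library 1 and 156 in library 2, a log2 ratio of -2.31 (-2.72 to -1.93), and H2-DMb1 at 161 and 174 CPM, a ratio of -2.61 (-3.05 to -2.20). H2-DMa and H2-DMb1 thus lay below even the macrophage-like level, whereas the class II sum was close to it in the pool (log2 ratio 0.07). By library the class II sum was 43630 against 44913 CPM in library 1 and 66901 against 49455 CPM in library 2, where it was higher on 5 cells. H2-Oa (3 UMIs, -2.80, -5.08 to -1.25) and H2-Ob (5 UMIs, -2.08, -3.71 to -0.85) were too sparse for a firm size. H2-DMb2 was at -1.01 in the pool, with 55.0 CPM in library 1 and 191 in library 2, where the ratio turned to 0.09 on 11 UMIs. Ciita at 11 UMIs (-0.57, -1.58 to 0.29) did not differ detectably at this depth.

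H2-Eb2, another class II beta chain gene, ran the opposite way. It stood at 216 CPM in library 1 and 208 in library 2 in mature dendritic-like cells, at 7.25 and 4.66 in dendritic-like cells and at 1.78 and 2.89 in macrophage-like cells. The log2 ratio over dendritic-like cells was 5.06 (4.49 to 5.63), from 63 and 48 UMIs. In the other classes it had at most 13 UMIs. The 21 cells were thus high in H2-Eb2 in each library while H2-Eb1 was lower than in dendritic-like cells (-0.78). H2-Eb1 and H2-Eb2 share no run of 50 bases in their longest transcripts.

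The other presentation genes also divided these cells. Of 9 class I presentation genes, which include B2m and the peptide transporter genes Tap1 and Tap2, 7 were higher by 2-fold or more in mature dendritic-like than in dendritic-like cells and none was lower, beside 15.8% of all genes higher and 18.5% lower. Of the 7, Nlrc5 reached 20 CPM only in mature dendritic-like cells. B2m stood at 3919 and 2866 CPM against 1362 and 1354, and Nlrc5, the class I counterpart of Ciita, at 173 and 122 CPM against 9.61 and 8.90. The called class I genes thus differed in the direction of H2-Eb2 and opposite to the called members. Against macrophage-like cells, dendritic-like cells had lower B2m (-1.05), beside 13.9% of all genes, and no class I gene higher. Nlrc5 was lower too (-1.24) but reached 20 CPM only in macrophage-like cells. Of 6 costimulation and checkpoint genes, Cd40 (2.53) and Cd274 (2.45) were higher in mature dendritic-like cells, and Cd80, Icosl and Pdcd1lg2 were higher in dendritic-like than in macrophage-like cells, beside 6.04% of all genes, the last 2 reaching 20 CPM only in dendritic-like cells. Irf1 and Irf8 were also called higher in mature dendritic-like cells, but Irf8 rests on library 1 and had no UMI in library 2.

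Lysosomal genes that cut antigen and invariant chain split the same classes the other way. Of 6 genes, Ctsl (-3.69), Ctsb (-2.95), Ctsd (-3.96) and Lgmn (-3.78) were lower by 2-fold or more in dendritic-like than in macrophage-like cells, beside 13.9% of all genes. Ifi30, the lysosomal thiol reductase gene, was higher (1.19), at 863 and 1029 CPM against 404 and 398. Ctss, the protease that makes the last cut in the invariant chain, was at 986 and 1113 CPM against 1456 and 1353 CPM and was not called (-0.48). Dendritic-like cells thus had more class II RNA and less of most of these proteases than macrophage-like cells. In mature dendritic-like over dendritic-like cells, Ctsd (1.84), Lgmn (1.93) and Ifi30 (1.29) were higher by 2-fold or more and none of the 6 was lower, beside the 15.8% of all genes higher and 18.5% lower in that pair. Of the genes for turnover of surface class II, March8, at 20 CPM or more only in macrophage-like cells, was lower in dendritic-like cells (-2.69), while March1, a ligase for class II, and Cd83, which opposes it, were not called. March1 and March8 had no UMI in mature dendritic-like cells, which allows up to 10.2 CPM each.

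Outside the myeloid classes, class II RNA was concentrated in few cells. Relative to macrophage-like cells, the class II sum was at a log2 ratio of -5.81 in fibroblast-like, -2.84 in endothelial-like and -6.71 in keratinocyte-like cells. H2-Aa, H2-Ab1, H2-Eb1 and Cd74 were each lower by 2-fold or more in all 3 classes. The share of all genes called lower was 20.3% for fibroblast-like, 18.4% for endothelial-like and 24.0% for keratinocyte-like cells. Ciita and H2-DMb2 reached 20 CPM only in macrophage-like cells in each of these pairs, H2-DMa and H2-DMb1 in all but the pair with endothelial-like cells, and H2-Oa and H2-Ob on neither side, so calls let in by the macrophage-like side alone are not counted. Per cell, the median share of UMIs from the class II sum was 0.0180% in fibroblast-like, 0.0246% in endothelial-like and 0.0249% in keratinocyte-like cells. Only 53 (3.13%) of the 1691 non-myeloid cells reached the 5th percentile of the macrophage-like cells, and these held 86.1% of all class II UMIs of the non-myeloid cells. In endothelial-like cells, 26 of 291 held 96.3%, and without them the log2 ratio fell from -2.84 to -7.34. In fibroblast-like cells 9 of 826 held 71.0%, and without them the ratio was -7.57. In keratinocyte-like cells 3 of 68 held 44.5%, all of them in library 1. The summed level of the endothelial-like and fibroblast-like classes therefore described a few cells and not the typical one. The keratinocyte-like class also depended on the settings. Under a stricter filter cells were clustered and named anew, and the 30 cells then named keratinocyte-like were at -0.51. They are not a subset of the 68 cells, so this value is not a change of level in the same cells.

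**Figure D2:**
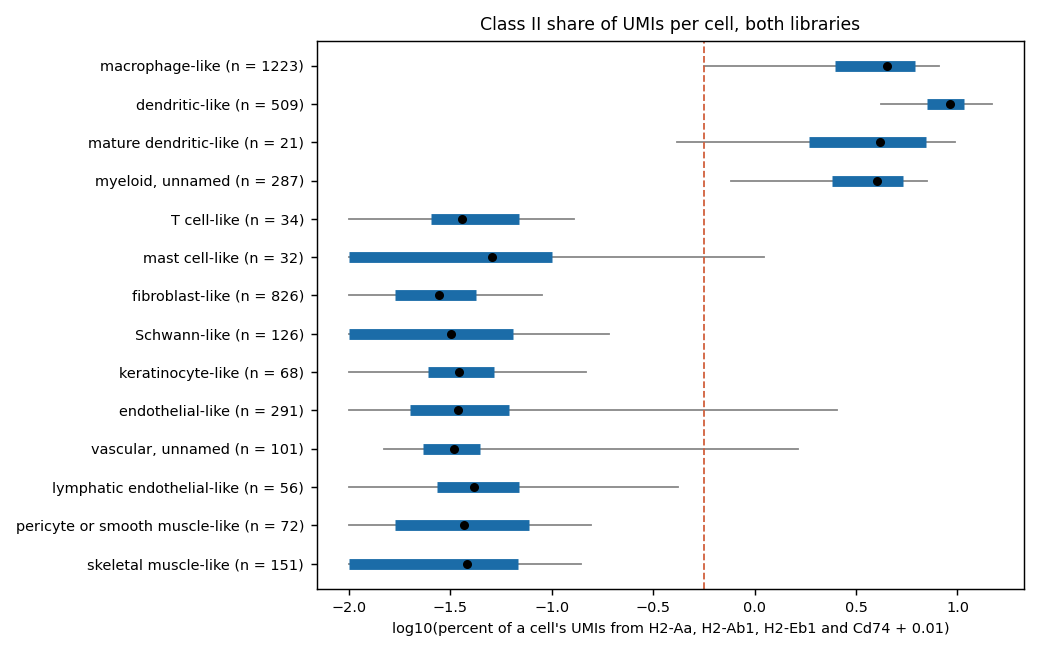
Percent of a cell's UMIs from H2-Aa, H2-Ab1, H2-Eb1 and Cd74, by class of cells with both libraries together, on a log10 axis after adding 0.01. Dots are medians, thick bars the 25th to 75th percentile, thin lines the 5th to 95th percentile, and the dashed line is the 5th percentile of macrophage-like cells. Medians are 4.51% in macrophage-like and 9.16% in dendritic-like cells and from 0.0180% (fibroblast-like) to 0.0315% (lymphatic endothelial-like) in non-myeloid classes.

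The 53 cells also carried other myeloid RNA. Of 8 reference genes of myeloid cells, C1qa, C1qb, C1qc, Tyrobp, Fcer1g, Laptm5, Lyz2 and Aif1, 51 of the 53 cells had a UMI, 48 had at least 10, and the median was 177 UMIs. Their median depth was 21912 UMIs against 10456 in the other 1638 cells, and 15 of them against 12 of the others had a Scrublet doublet score of at least 0.2. The make-up of their class II RNA was that of myeloid cells, with 47.0% from Cd74. The part of doublets and of free RNA in these levels was not tested.

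In fibroblast-like and endothelial-like cells, class II RNA and the reference genes were both far below the macrophage-like level, class II RNA by less. In fibroblast-like cells the class II sum was at 1.79% of the macrophage-like level, with 1.61% for H2-Aa and 2.14% for H2-Ab1, and the summed reference genes were at 1.20% (0.554 to 1.61 over the 8 genes). In endothelial-like cells the class II sum was at 14.0% and the reference at 8.99% (5.20 to 11.7). In cells without any reference UMI the class II sum fell to 0.406% (186 CPM, 440 cells) and 0.570% (262 CPM, 165 cells). Class II RNA thus exceeded the reference by a ratio of 1.49 and 1.55 over all cells of these classes, and most of it went with the cells that held reference UMIs. Both percents are scaled to macrophage-like cells, and on this scale dendritic-like cells themselves had a ratio of 3.92. A ratio above 1 therefore cannot tell class II RNA of these classes from RNA of mixed myeloid cells, and its source was not tested. Without the cells at or above the macrophage 5th percentile, the ratio was 1.41 (1.28 to 1.56) in fibroblast-like cells and 0.824 (0.700 to 0.970) in endothelial-like cells. That limit is set on class II RNA, the numerator of the ratio, so the choice of cells itself bears on these values. The endothelial-like value was 0.563 in library 1 and 2.43 in library 2, on opposite sides of 1, so no direction is given for these cells.

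The other non-myeloid cells held a low level, and part of them had no class II UMI. In the 1638 cells below the 5th percentile the class II sum was 336 CPM in library 1 and 171 in library 2. By class it ran from 237 CPM in Schwann-like to 374 CPM in lymphatic endothelial-like cells in the pool. In library 1 it ran from 278 CPM in vascular cells of unnamed type to 414 in skeletal muscle-like cells. In library 2 it ran from 122 CPM in Schwann-like to 364 in lymphatic endothelial-like cells. Cd74 made up 38.1% of it and H2-Ab1 23.9%, against 46.1% and 16.9% in macrophage-like cells. Ciita had 12 UMIs in these cells and H2-Oa had 1. After thinning, 34.9% of 780 fibroblast-like cells (78.9% unthinned) and 46.1% of 269 endothelial-like cells (85.2% unthinned) had a UMI of any of the 4 genes, with 46 and 22 cells left out. Skeletal muscle-like cells, taken as a class that should lack them, had one in 46.8% of 111 cells (37.3 to 56.6), with 40 left out and 71.5% unthinned. Median depths were 13108, 9384 and 3931 UMIs. In the pool at this depth, the fibroblast-like and endothelial-like shares did not exceed that of muscle-like cells. Library 1 gave 318 of the 826 fibroblast-like, 134 of the 291 endothelial-like and 89 of the 151 muscle-like cells. Their median percent of UMIs from the class II sum was 0.0312, 0.0366 and 0.0426 in library 1. In library 2 it was 0.0110, 0.0146 and 0.00892, with muscle-like cells lowest. The order of these classes thus differed by library, and the shares are not read as expression.

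Over the 27 clusters, genes were ranked by likeness to the class II sum. Among 5774 genes with at least 20 CPM over all cells and outside the lists, Wfdc17 (Pearson's r 0.966), Mgl2 (0.958), Ly86 (0.955), Ero1lb (0.952), Pik3r5 (0.952), Csf2ra (0.950), Rassf4 (0.948), Nrros (0.948), Gpr132 (0.946) and Coro1a (0.946) ranked highest on log2 CPM with 10 CPM added. Mgl2 is also a marker used to name dendritic-like clusters. Of the members and listed genes, H2-DMa reached 0.980, Cd86 0.974, H2-DMb1 0.972, Cd83 0.969 and Spi1 0.968, whereas H2-DMb2 reached 0.822. Clusters share the 2 libraries, and each r is taken over myeloid and other clusters together. The part of that contrast in each r was not tested. With another pseudocount or resolution, 5, 5 and 7 of the 10 genes were again among the first 10.

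By position, 8 of the 10 genes lie on mouse chromosome 17 in GRCm38 (GENCODE vM21). H2-Oa (ENSMUSG00000024334, chr17:34092340-34095234) comes first, then H2-DMa (ENSMUSG00000037649, chr17:34119541-34139101), H2-DMb2 (ENSMUSG00000037548, chr17:34143307-34151555) and H2-DMb1 (ENSMUSG00000079547, chr17:34153072-34160230). H2-Ob (ENSMUSG00000041538, chr17:34238903-34254414), H2-Ab1 (ENSMUSG00000073421, chr17:34257689-34269419), H2-Aa (ENSMUSG00000036594, chr17:34282744-34287823) and H2-Eb1 (ENSMUSG00000060586, chr17:34305867-34316674) follow. H2-Eb2 (ENSMUSG00000067341, chr17:34325665-34341412) ends the span of 249073 bases, and of these genes only H2-Aa is on the minus strand. The order does not follow the levels: H2-Ob, at 9.60 CPM in macrophage-like cells, lies next to H2-Ab1 at 7771 CPM, and H2-Oa and H2-Ob, with the largest dendritic-like ratios beside H2-DMb2, lie at a distance with the H2-DM genes between them. Ciita (ENSMUSG00000022504) lies on chromosome 16, chr16:10480059-10528418.

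**Figure D3:**
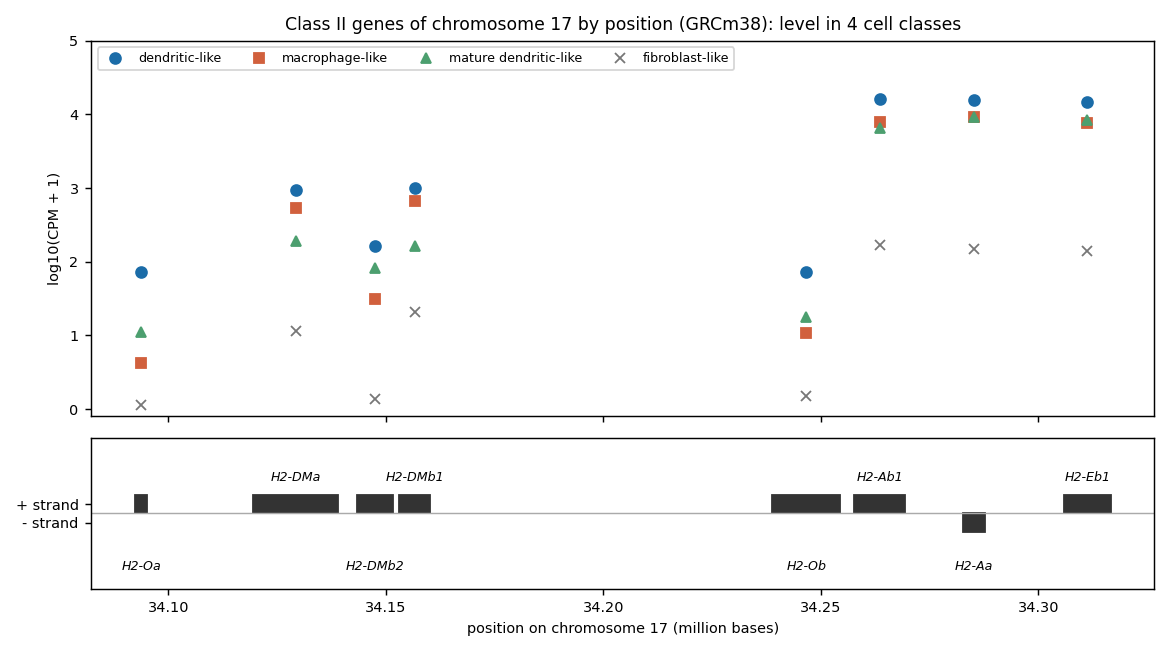
Levels of the 8 members on chromosome 17 (GRCm38) by position, as log10 of pooled CPM plus 1 in 4 classes of cells, above a map of the genes. Boxes above the line are on the plus strand and the box below it is on the minus strand. The editor genes H2-Oa, H2-DMa, H2-DMb2 and H2-DMb1 lie before H2-Ob, and the chain genes after it.

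Promoters of the members, all higher in dendritic-like cells, are shown for the letters of the boxes through which CIITA acts. RefSeq promoters (GRCm38.p6) matched 7 members with 8 entries. H2-Ab1, Cd74 and Ciita had no entry. The letters ATTGG, the core of the Y box, were searched on both strands in the 250 bases before each start, as were GCAAC, letters of the X box. ATTGG lay in promoters of 7 of the 7 members and in 33.8% of 32851 promoters of the same length, and GCAAC in 5 of 7 and 29.9%. H2-DMa had more than 1 entry, GCAAC only in the first and ATTGG only in the other. It counts when either matches, whereas the shares are of single promoters. Both lay in 1 promoter for 4 members, H2-Aa, H2-Eb1, H2-Oa and H2-Ob, and in 10.6% of all promoters. In these 4 the first bases of GCAAC and ATTGG were 30 to 33 bases apart, at 81 and 48 bases before the start in H2-Aa and at 76 and 43 in H2-Oa. The pair thus had nearly the same spacing in H2-Aa, a leading gene in macrophage-like cells, and in H2-Oa, which was near 0 there. H2-DMb1 and H2-DMb2 had ATTGG at 61 and 90 bases and no GCAAC. The 150 bases before the start are given 5′ to 3′ on the strand of the gene, with both sets of letters in capitals on either strand. They cover chr17:34287824-34287973 (minus strand) for H2-Aa, and on the plus strand chr17:34305717-34305866 for H2-Eb1, chr17:34092229-34092378 for H2-Oa, chr17:34238755-34238904 for H2-Ob, chr17:34153041-34153190 for H2-DMb1 and chr17:34145099-34145248 for H2-DMb2. A match describes letters and is not a site.
H2-Aa: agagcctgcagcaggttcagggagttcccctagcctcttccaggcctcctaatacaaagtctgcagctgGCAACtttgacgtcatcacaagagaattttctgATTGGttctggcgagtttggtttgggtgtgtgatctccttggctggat
H2-Eb1: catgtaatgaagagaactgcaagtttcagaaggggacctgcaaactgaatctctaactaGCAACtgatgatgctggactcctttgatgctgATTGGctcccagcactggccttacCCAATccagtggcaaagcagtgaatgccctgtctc
H2-Oa: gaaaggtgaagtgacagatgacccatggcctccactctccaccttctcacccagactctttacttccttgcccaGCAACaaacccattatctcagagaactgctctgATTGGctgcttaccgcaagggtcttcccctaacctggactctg
H2-Ob: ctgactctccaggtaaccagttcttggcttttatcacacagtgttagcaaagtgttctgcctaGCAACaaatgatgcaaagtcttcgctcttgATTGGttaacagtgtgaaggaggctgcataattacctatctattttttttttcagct
H2-DMb1: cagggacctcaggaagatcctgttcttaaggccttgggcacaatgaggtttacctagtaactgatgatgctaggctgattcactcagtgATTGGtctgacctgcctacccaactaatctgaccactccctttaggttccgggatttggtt
H2-DMb2: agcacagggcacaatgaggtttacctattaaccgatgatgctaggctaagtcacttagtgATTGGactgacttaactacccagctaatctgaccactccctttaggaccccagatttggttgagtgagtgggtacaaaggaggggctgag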

How the data were processed

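The deposited matrix holds UMI counts of both libraries, which the authors made with Cell Ranger 4.0.0 on mm10, per the submitters' processing notes. Counts were read in Python 3.11.15 and clustered in scanpy 1.11.5 (2000 variable genes without the 64 members and listed genes, 30 components, 15 neighbours, Leiden resolution 1, leidenalg 0.10.2). A cluster took a name from 24 marker lists when 3 markers reached 20 CPM and 2 times the median cluster, with a lead of 1 on the log2 scale over every other list and no more markers of another group of cells among its 10 leading genes. Where only lists of the same group (macrophage, dendritic, vascular, stromal or epithelial, lymphoid or granulocyte) were closer than 1, the cluster took the name of the group. Scrublet called 6 doublets, which were kept, so doublets are in effect untreated. UMIs were summed per class as CPM with exact Poisson intervals (scipy 1.17.1, numpy 2.4.6), and a count of 0 was given a limit of 3 counts. Intervals were tried only on counts simulated with the Poisson error they assume, which does not bear on spread between cells or animals. The genes named are the 10 members, every gene of the fixed lists, and the 10 genes most like the class II sum. Members and lists were chosen with earlier results of these data known. Alternatives changed the cell filter, resolution, variable genes, library, weighting, thinning, doublets, the macrophage class and the cells with high class II.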

Additional observations from a re-analysis of the deposited data

Results flagged for a closer look

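The filter on cells left out 1460 barcodes, of which 1149 exceeded the mitochondrial limit, and these hold class II RNA that no comparison above uses. Their class II sum was 7692 CPM (exact 95% Poisson interval 7618 to 7766). Of these barcodes, 256 (17.5%) reached the 5th percentile of the macrophage-like cells, while the median barcode had 0.0573% of its UMIs from the 4 genes. Barcodes over the mitochondrial limit stood at 8105 CPM. Which classes of cells they came from was not tested.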

How the results depend on the processing

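In the main setting the class II sum was 45935 CPM in macrophage-like cells, its log2 ratio to them was 0.96 in dendritic-like, -5.81 in fibroblast-like, -2.84 in endothelial-like and -6.71 in keratinocyte-like cells, and class II exceeded the carry-over reference by 1.49 in fibroblast-like and 1.55 in endothelial-like cells. Log2 ratios below keep these signs, and each is outside the counting interval of the main value or decided by a library.
A looser cell filter gave 40777 CPM, ratios of 1.08, -5.64, -2.23 and -6.48, and reference ratios of 1.59 and 1.64. A stricter filter gave 46357 CPM, 0.95, -5.67, -2.79 and -0.51, and an endothelial-like reference ratio of 1.34. Cells were clustered and named anew under it, and the -0.51 is of another set of cells than the keratinocyte-like class of the main setting. Resolution 0.5 gave 45144 CPM, 1.02 for dendritic-like, -3.14 for endothelial-like and 1.43 for its reference ratio. Resolution 2 gave 42249 CPM, -5.68, -2.72 and -6.59 for the non-myeloid classes, and 1.65 and 1.72. With 3000 variable genes the values were 43313 CPM, 1.05, -5.72, -2.77 and -6.63. Library 1 alone gave 44913 CPM, 0.96, -5.87, -2.15 and -6.23, and library 2 alone 49455 CPM, 0.94 for dendritic-like, -4.19 for endothelial-like, -8.18 for keratinocyte-like and 1.39 for the endothelial-like reference ratio. Means of per-cell CPM gave 43877 CPM, 1.06, -6.29, -3.71 and -4.56.
Alternatives on the classes were chosen after seeing the data. With the unnamed myeloid clusters added to macrophage-like cells, values were 44481 CPM, 1.01, -5.76 for fibroblast-like and -2.79 for endothelial-like cells. Without non-myeloid cells at or above the macrophage 5th percentile, they were -7.57, -7.34 and -7.55, with an endothelial-like reference ratio of 0.824, and in library 1 and library 2 alone the ratios were then 1.36 and 1.59 for fibroblast-like and 0.563 and 2.43 for endothelial-like cells. The cause of that turn was not tested. Without cells of doublet score 0.2 or more, which was planned, fibroblast-like cells were at -6.17 and endothelial-like at -3.45, with reference ratios of 2.04 and 1.67.
The thinned share of cells with any UMI, 34.9% in fibroblast-like and 46.1% in endothelial-like cells, was 51.6% and 59.5% in library 1, 23.9% and 34.3% in library 2, and 20.1% and 29.6% at 1000 UMIs. Without cells holding a reference UMI, the class II sum went from 1.79% to 0.406% and from 14.0% to 0.570% of the macrophage-like level.
H2-DMb2 in mature dendritic-like over dendritic-like cells went from -1.01 to 0.09 in library 2 alone. Of the other single-gene values, 47 of 110 for dendritic-like over macrophage-like cells stayed within counting error and 63 moved in size with no change of sign, and for mature dendritic-like cells 62 of 77 stayed and 14 moved. The mature dendritic-like class was not found under the looser filter, the stricter filter or 3000 variable genes, so these gave no value. The cause of these changes was not tested.
Depth limits H2-Oa, H2-Ob and Ciita outside dendritic-like cells, where few UMIs were counted. With 1 library per age, spread between animals is unknown.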

Other observations

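Of 8 listed genes induced by interferon-gamma, 3 (Cxcl9, Gbp4 and Iigp1) were highest in endothelial-like cells in the pool, 4 in Schwann-like cells and 1 in fibroblast-like cells. None was highest in a myeloid class. Iigp1, a GTPase gene of cell-autonomous defence, stood at 1551 CPM in library 1 and 1399 in library 2 in endothelial-like cells, against 11.2 and 14.5 CPM in macrophage-like cells. Irf1, a transcription factor upstream of Ciita, stood at 609 and 645 CPM against 46.1 and 53.6 CPM, and Cxcl9, a chemokine gene for T cells, at 270 and 239 CPM against 9.76 and 7.60. Ciita in endothelial-like cells was at 3.82 and 2.17 CPM, on 7 and 4 UMIs. Over the 27 clusters, Pearson's r with the class II sum was -0.35 for Irf1 and ran from -0.58 (Socs1) to 0.02 (Cxcl9) over the 7 listed genes with at least 20 CPM over all cells, with -0.38 for Iigp1 and -0.12 for Gbp2. Endothelial-like cells were thus high in Iigp1, Irf1 and Cxcl9 in both libraries while Ciita was scarce in them.

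The reference genes and the class II sum did not keep a common ratio in every class. In pericyte or smooth muscle-like cells of library 2, the reference genes were at 8.09% of the macrophage-like level and the class II sum at 0.425%, and in library 1 they were at 0.588% and 0.878%. In Schwann-like cells of library 2 they were at 5.20% and 0.246%, and in library 1 at 6.45% and 9.60%. The cause was not tested.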
